A study of Homo sapiens with 12 samples.

Results

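The comparison described here was the late change in gene expression after loss of PAF1: 6 h against 2 h in auxin, within 1 cell line. Its members were 4 of the 12 RNA-seq libraries of the series, chosen by their labels: the PAF1-AID 2h libraries (replicates 3 and 4) and the PAF1-AID 6h libraries (replicates 3 and 4). All 4 came from the human colorectal adenocarcinoma line DLD-1, with the genotype PAF1-AID OsTIR1, and all were treated with 500 µM auxin. The other groups used below were PAF1-AID cells at 0 h, and SPT6-AID OsTIR1 cells of the same line at 0, 2 and 6 h. OsTIR1, the plant receptor that marks a degron-tagged protein for destruction once auxin is present, was expressed constitutively. Because auxin was present on both sides, only what happened between 2 and 6 h was measured, and auxin-treated cells without a degron were not analysed here. The labels do not say whether the replicates were separate cultures or how many clones were used, and p-values here therefore reflect no more than library-to-library spread, which may be technical. RNA was selected on its poly(A) tail, so the values are levels of polyadenylated RNA and not rates of transcription.

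PAF1 is a subunit of the PAF1 complex, which also holds CTR9, CDC73, LEO1, RTF1 and WDR61 and travels with RNA polymerase II along genes. The complex is known for its part in the release of paused polymerase, in elongation through chromatin, in ubiquitylation of histone H2B and in events at the 3' ends of genes. A degron removes the protein quickly and leaves its mRNA alone, so an RNA measurement a few hours later mixes genes that react to the loss itself with genes that react to what the loss has already changed.

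The 2h libraries held 43961805 and 50557557 reads in all and the 6h libraries 63485873 and 62264387, within the range of 31957953 to 115904780 over the 12 libraries. Fly reads, counted in every library, were rarer at 2 h than at 6 h: there were 20.9 and 20.8 human counts per fly count at 2 h, and 18.6 and 19.3 at 6 h. Mitochondrially encoded transcripts took 2.65% and 2.54% of human counts at 2 h, and 3.16% in replicate 3 and 2.22% in replicate 4 at 6 h, so the 6h libraries lay on either side of the 2h ones. The 8 listed markers of colorectal epithelium, 6 of them tested, summed to 4270 to 4499 CPM (counts scaled to library size) at 2 h and 4612 to 4632 at 6 h, with CDX1 at 0 in all 4 libraries. Markers of other cell types summed to less than these, most for blood cells, whose sums were higher at 6 h than at 2 h. The 5 fibroblast markers, 1 of them tested, summed to 1.83 to 2.94 CPM and then 0.618 to 1.69, with COL1A2 at 0. The 3 endothelial markers, 2 of them tested, summed to 0.794 to 0.797 and then 0.553 to 0.858. The 5 blood cell markers, 3 of them tested, summed to 20.6 to 21.2 and then 29.2 to 30.2. No marker of any of these lists was called in the model without a replicate block. With the replicate number as a block within each line, 1 blood cell marker was called higher and 1 fibroblast marker lower. With fly counts as library sizes, 0 genes were called from 2 to 6 h. The median log2 change of all genes tested then moved from 0.01 to -0.15. The part of these markers or of the mitochondrial share in the results was not tested.

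Between 2 and 6 h, 182 of 20791 genes tested were called at an adjusted p under 0.05 (0.875%), 60 of them higher (0.289%) and 122 lower (0.587%). IRF2, an interferon regulatory factor, fell by 3.96-fold, MAGEF1, a MAGE-family partner of ubiquitin ligases, also fell, and NXF1, the main export receptor for mRNA, rose. These calls were kept in the most alternative fits, but leaving out a compared library kept at most 2 of all 182 calls. Among the genes that fell were SMG9, a factor of nonsense-mediated decay, the splicing factor RBM39 and BRCA2, a gene of homologous recombination, and among those that rose were EIF4A3, the helicase of the exon junction complex, and the synaptic scaffold gene PPFIA4. Most changes were modest: 26 genes rose and 43 fell at least 2-fold. Of the 11 that rose at least 4-fold, only PPFIA4 (4.92-fold) had a mean log2 CPM of at least 1. Only the long non-coding RNA AC015921.1 fell at least 4-fold, from 1.13 and 0.797 CPM to 0.207 and 0.0686. The median called gene changed by 0.93 on the log2 scale if higher and by -0.92 if lower, against a median of 0.01 over all genes tested.

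**Figure D1:**
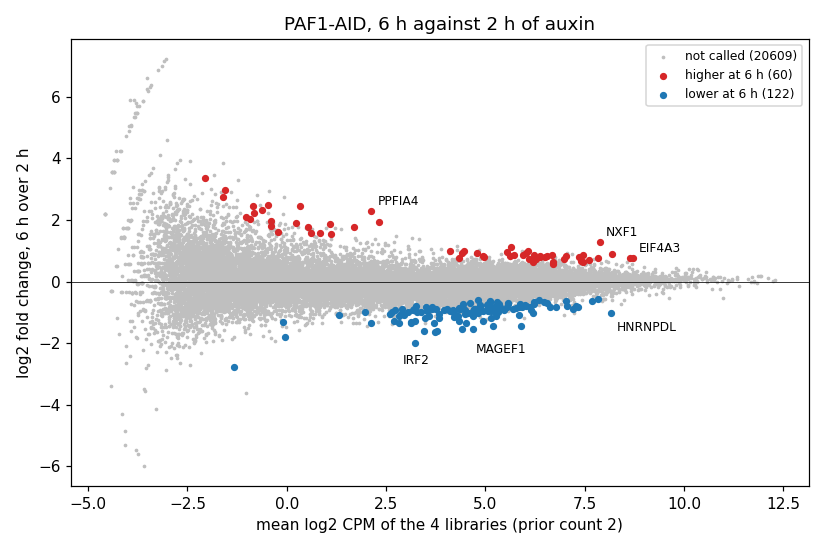
Log2 fold change from 2 to 6 h of auxin in PAF1-AID cells (vertical axis) against the mean log2 CPM of the 4 libraries (horizontal axis), 1 point per gene tested. The 60 genes called higher (red) spread from low to high abundance, the 122 called lower (blue) lie mostly at middle and high abundance, and genes of low abundance with larger fold changes were mostly not called (grey).

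The test was edgeR's quasi-likelihood test, with all 12 libraries fitted as 6 groups, with Benjamini-Hochberg adjustment over all genes, and each error given after ± is a standard error of the log2 fold change unless marked SD. In all 182 called genes, both 6h libraries lay on the same side of both 2h libraries, but this was also so in 48.9% of all genes tested. Calls given by gene or by list are those of this model, which has no replicate block, unless said otherwise. With the replicate number as a block within each line, 4172 genes were called. A list's only call in this model need not be its only call with the block. The count of calls was fragile. Leaving out replicate 3 of either PAF1-AID group compared, at 2 or at 6 h, gave 0 calls, and leaving out replicate 4 of either gave 2. The count was 3 or 4 without any one 0h library or SPT6-AID 2h library, and 278 without either SPT6-AID 6h library. All 182 genes kept their direction in each of these fits. Their 2h and 6h libraries did not overlap, so leaving out a library could hardly turn a direction, and this lends the calls no weight.

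Promoters are shown for the 2 called genes with the smallest adjusted p, NXF1, which rose, and MAGEF1, which fell. Each line is the 250 bases upstream of the RefSeq start (build GRCh38.p14), read 5′ to 3′ on the gene's own strand, which is the minus strand for both. The NXF1 stretch lies within the gene as bounded in GENCODE 29, which places the gene's 5′ end further upstream. The MAGEF1 stretch lies outside its gene in both. Capitals mark exact matches on either strand to any of 4 motifs. The GC box was searched as GGGCGG, and as its complement on the other strand. The TATA box was searched as TATAAA, likewise on both strands. For the CCAAT box the letters were those of its name. The core site of ETS factors was searched as CCGGAAG, and no match of one motif overlapped one of another in the promoters shown.
NXF1, chr11:62805441-62805690: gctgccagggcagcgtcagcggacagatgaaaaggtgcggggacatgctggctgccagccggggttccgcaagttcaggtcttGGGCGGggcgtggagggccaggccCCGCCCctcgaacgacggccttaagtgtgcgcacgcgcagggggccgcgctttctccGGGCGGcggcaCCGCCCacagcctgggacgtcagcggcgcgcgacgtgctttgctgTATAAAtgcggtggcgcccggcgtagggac
MAGEF1, chr3:184712065-184712314: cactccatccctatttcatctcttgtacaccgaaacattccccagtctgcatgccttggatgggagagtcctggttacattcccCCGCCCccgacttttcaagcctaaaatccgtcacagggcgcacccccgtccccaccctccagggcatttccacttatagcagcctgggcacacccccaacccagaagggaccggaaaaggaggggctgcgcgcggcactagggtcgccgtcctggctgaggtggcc
The NXF1 promoter held 4 GC boxes and 1 TATA box, and the MAGEF1 promoter 1 GC box. A promoter was matched for 41 of the 60 higher genes, 101 of the 122 lower genes and 11697 of all tested genes. The TATA box was in 12.2% of the higher, 3.96% of the lower and 6.16% of all of them, which in the higher genes is 5 promoters. The GC box was in 58.5%, 56.4% and 64.9%, the CCAAT box in 29.3%, 31.7% and 34.8%, and the ETS core in 17.1%, 16.8% and 14.8% of the higher, lower and all promoters. A match is a description of the letters and not a bound site.

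NXF1 (ENSG00000162231, chr11:62792123-62806302 in GENCODE 29 on GRCh38) stood at 144 and 157 CPM at 2 h and at 398 and 333 CPM at 6 h. Both 6h libraries were more than 2-fold above both 2h libraries. The rise was 1.28 ± 0.12 on the log2 scale (2.42-fold, adjusted p = 0.00845, n = 2 and 2). At 0 h the gene stood at 86.4 and 85.2 CPM, so it climbed across both intervals. Of 28 cleavage, termination and export factors measured, NXF1 was the 1 called higher and SCAF8, a binder of the polymerase tail, the 1 called lower (-0.83 ± 0.13, adjusted p = 0.031), and the list's median was 0.00. With a replicate block, 5 of the list were called higher and 7 lower.

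IRF2 (ENSG00000168310, chr4:184387713-184474580), a transcription factor best known as a counterpart of IRF1 at interferon-responsive genes, stood at 21.6 and 15.9 CPM at 2 h and at 4.48 and 4.98 CPM at 6 h. The 2h libraries differed from each other by more than the 6h libraries did, and the groups lay far apart. The fall was -1.99 ± 0.21 (3.96-fold lower, adjusted p = 0.0152). Of 30 interferon regulatory factors and response genes, IRF2 was the only one called in the model without a replicate block, and the median of the list was 0.14. With the block, 5 of the list were called higher and 3 lower.

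MAGEF1 (ENSG00000177383, chr3:184710367-184712002), a gene of 1 exon, went from 43.5 and 43.9 CPM to 14.05 and 16.1 CPM. The libraries within each time agreed closely, and the fall was -1.53 ± 0.14 (2.89-fold lower, adjusted p = 0.00845). NXF1, IRF2 and MAGEF1 were each called in 18 of 23 alternative fits and in 9 of the 12 that left out a library, more than any other called gene. Most of those 9 fits left out a library outside the comparison. The 3 genes also had the smallest p in the main fit, and the alternatives reused the same libraries, so this lead is not separate support. Leaving out 1 of the 4 compared libraries kept only 0 to 2 of the 182 calls.

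**Figure D2:**
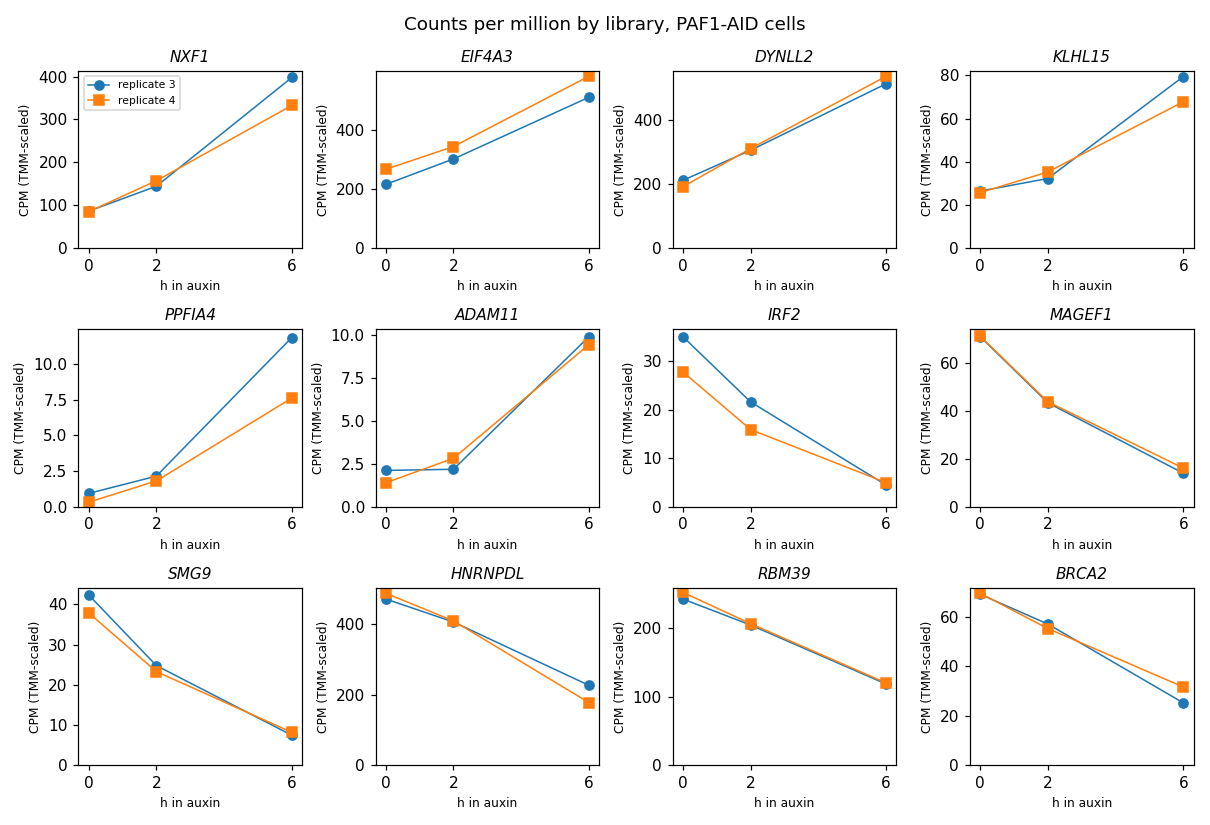
CPM scaled by TMM (vertical axis, from 0) against hours in auxin (horizontal axis) for 12 genes in PAF1-AID replicates 3 and 4, with 1 line per replicate number, which the labels do not say is a pairing. NXF1, EIF4A3, DYNLL2, KLHL15, PPFIA4 and ADAM11 were called higher from 2 to 6 h, and IRF2, MAGEF1, SMG9, HNRNPDL, RBM39 and BRCA2 lower.

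The most abundant genes that rose were EIF4A3, DYNLL2, NXF1, CDC42EP3 and LUZP1. EIF4A3, the RNA helicase at the core of the exon junction complex, went from 302 and 344 CPM to 510 and 581 CPM (0.76 ± 0.14, adjusted p = 0.0412). DYNLL2, a light chain of the dynein motor, went from 305 and 310.4 CPM to 512 and 535 CPM (0.77 ± 0.11, adjusted p = 0.029). In both genes the 6h libraries stood about 1.7-fold above the 2h libraries, whose own spread was much smaller. CDC42EP3, an effector of the small GTPase CDC42, rose from 197 and 229.9 CPM to 413 and 377 CPM (0.89 ± 0.15, adjusted p = 0.0335). LUZP1, a leucine zipper protein of the actin cytoskeleton and cilium, rose from 165 and 182 CPM to 303 and 291 CPM (0.78 ± 0.14, adjusted p = 0.0412).

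Among well expressed genes with the largest rises, KLHL15, an adaptor of a cullin ubiquitin ligase, went from 32.3 and 35.3 CPM to 79.5 and 67.8 CPM (1.12 ± 0.14, adjusted p = 0.029). FASTKD5, which helps process mitochondrial RNA, went from 45.5 and 50.1 CPM to 102 and 90.5 CPM (1.01 ± 0.15, adjusted p = 0.031). TOB1, an antiproliferative protein that recruits the CCR4-NOT deadenylase, went from 43.7 and 51.2 CPM to 91.0 and 89.5 CPM (0.93 ± 0.13, adjusted p = 0.029). KLHL15 has 4 exons in GENCODE 29, FASTKD5 2 and TOB1 3. CIPC, a repressor of the circadian factor CLOCK, rose by 1.00, OSBPL5, a lipid-transfer protein, by 0.99, EXOC8, a subunit of the exocyst, by 0.97, RNF113A, a ubiquitin ligase of the spliceosome, by 0.94, and MARS2, the mitochondrial methionyl-tRNA synthetase, by 0.94 on the log2 scale, with adjusted p between 0.031 and 0.0494. MARS2 stood at 26.8 and 29.2 CPM at 0 h, 19.7 and 20.2 at 2 h and 39.2 and 37.1 at 6 h, so its 2h libraries were the lowest of the 3 times.

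Other rises began from low levels. At 2 h, 22 of the 60 higher genes stood under 5 CPM, against 4 of the 122 lower genes and 44.8% of all genes tested. PPFIA4, a liprin that scaffolds synapses, went from 2.14 and 1.80 CPM to 11.8 and 7.60 CPM (2.30 ± 0.42, adjusted p = 0.0412). ADAM11, a membrane protein of the ADAM family found mainly in neurons, went from 2.19 and 2.83 CPM to 9.93 and 9.47 CPM (1.95 ± 0.29, adjusted p = 0.031). Both are known mainly from tissues other than gut, and the libraries of the 2 times did not overlap in either. ST8SIA5, a sialyltransferase of ganglioside synthesis, rose by 1.88, EFCAB12, an EF-hand protein, by 1.76, and ITGA2B, the alpha chain of the platelet fibrinogen receptor, by 1.55 on the log2 scale, and none of these 3 exceeded 6 CPM in any of the 4 libraries. Of 497 antisense RNA genes measured, EMC1-AS1 (1.80 ± 0.34) and LRP4-AS1 (2.03 ± 0.35) were called higher and VPS9D1-AS1 (-0.77 ± 0.14) lower, and the list's median was -0.00. Whether antisense reads were kept apart from those of the partner gene is not given in the sources used here, so these 3 are uncertain, as are the pseudogenes LAMB2P1, CTBP2P10 and ATF4P4 among the calls (named after their values were seen).

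Several of the largest falls were in genes known as regulators of transcription or chromatin, a grouping made by background knowledge and not by a list. NR2C2, an orphan nuclear receptor, went from 36.1 and 35.8 CPM to 12.4 and 12.4 CPM (-1.54 ± 0.26, adjusted p = 0.0361). YEATS4, a reader of acetylated histones in the TIP60 and SRCAP complexes, went from 17.6 and 21.0 CPM to 4.89 and 7.86 CPM (-1.60 ± 0.29, adjusted p = 0.0412). KAT5, the acetyltransferase of the TIP60 complex, looked up because of YEATS4 and so chosen after its value was seen, was also called, at -0.83 ± 0.15. ZNF518A, a zinc finger protein, went from 113 and 85.5 CPM to 36.7 and 36.5 CPM (-1.44 ± 0.19, adjusted p = 0.029). RFX1 (-1.33 ± 0.23) and RFXAP (-1.34 ± 0.23), a DNA-binding factor of the RFX family and a partner of another RFX protein at MHC class II genes, and PRDM10 (-1.34 ± 0.23), a zinc finger factor, fell to between 4 and 10 CPM.

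By list, 2 of 56 general transcription factors and Mediator genes fell and none rose: TAF1, the largest subunit of TFIID (43.6 and 42.9 CPM to 26.8 and 25.6 CPM, -0.72 ± 0.13), and GTF2A1, a subunit of TFIIA (51.9 and 45.7 CPM to 25.1 and 25.1 CPM, -0.96 ± 0.19). The median of that list was 0.01, equal to that of all genes tested. With a replicate block, 9 of these 56 genes were called higher and 14 lower. Of 43 histone lysine methylation and H2B ubiquitylation genes, SETDB1, a methyltransferase of histone H3 lysine 9, was the only one called (28.0 and 27.6 CPM to 14.6 and 16.1 CPM, -0.86 ± 0.16, adjusted p = 0.0412), and the median was -0.05. With the block, 6 of these 43 were called higher and 10 lower. Of 33 pausing and elongation factors none was called in the model without a replicate block, and the median was 0.06. The members with the smallest p were EAF1, an elongation factor partner (0.59 ± 0.12, adjusted p = 0.0552), CDK12, a kinase of the polymerase tail (-0.73 ± 0.16, adjusted p = 0.0594), IWS1, a partner of SPT6 (-0.87 ± 0.19, adjusted p = 0.0632), and CCNT1, the cyclin of P-TEFb (0.52 ± 0.13, adjusted p = 0.0923). The 371 ZNF genes held 1 call higher, ZNF843 (0.217 and 0.252 CPM to 1.04 and 1.20 CPM), and 2 lower, ZNF518A and ZNF146 (148 and 144 CPM to 81.7 and 83.6 CPM, -0.82 ± 0.14), around a median of 0.06. From 0 to 2 h the median of the same 371 genes was -0.29; the 2 intervals share their 2h libraries, so the values are given side by side only.

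The PAF1 complex itself had no called member among the 6 measured in the model without a replicate block. PAF1 mRNA stood at 129 and 124 CPM at 2 h and 116 and 117 CPM at 6 h (-0.13 ± 0.12, adjusted p = 0.753). Because the degron acts on the protein, this level does not check the depletion. CTR9, the scaffold of the complex, stood at 87.8 and 97.0 CPM and then at 144 and 136 CPM (0.60 ± 0.13, adjusted p = 0.0597), above both 2h libraries in both 6h libraries but short of the threshold. Values for LEO1 (0.21 ± 0.15), RTF1 (0.26 ± 0.16) and WDR61 (0.25 ± 0.18) lay within 0.3 of 0, and CDC73 stood at 34.1 and 36.1 CPM and then at 32.2 and 36.6 CPM.

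HNRNPDL, a hnRNP protein that regulates its own splicing and the most abundant gene called lower, went from 406 and 409.5 CPM to 227 and 178 CPM (-1.01 ± 0.14, adjusted p = 0.029). RBM39, a splicing factor, went from 204 and 206 CPM to 118 and 119.9 CPM (-0.79 ± 0.11, adjusted p = 0.029). TARDBP, which encodes TDP-43, went from 276 and 279 CPM to 185 and 189.7 CPM (-0.57 ± 0.10, adjusted p = 0.0412). In all 3 the 2h libraries were nearly equal and each 6h library was lower, by 1.48-fold for TARDBP, 1.72-fold for RBM39 and 2.02-fold for HNRNPDL. HNRNPDL and RBM39 were the 2 called of 32 splicing regulators in the model without a replicate block, both lower, and the list's median was -0.10. With the block, 4 were called higher and 11 lower. SRSF3, which also limits its own splicing (-0.72 ± 0.15, adjusted p = 0.0552), and CLK3, a kinase of splicing factors (0.52 ± 0.11, adjusted p = 0.0552), were closest among the rest, in opposite directions.

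Of 18 nonsense-mediated decay factors, 1 was called higher and 1 lower, and the median was -0.03. With a replicate block, 2 were called higher and 4 lower. The member called higher without the block was EIF4A3, described above. SMG9, a partner of the SMG1 kinase that starts this decay, went from 24.8 and 23.3 CPM to 7.46 and 8.19 CPM (-1.62 ± 0.30, 3.07-fold lower, adjusted p = 0.0412). SMG8, the other partner of SMG1, stood at 27.5 and 24.3 CPM and then at 50.3 and 40.7 CPM (0.81 ± 0.16, adjusted p = 0.0511), just short of a call. The 2 partners of the same kinase thus had values of opposite sign, of which only that of SMG9 was called.

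Recombination and repair genes had the lowest median of the 38 lists with at least 6 measured genes. Of 40 measured, 2 fell and none rose, the median was -0.35 (-0.39 in replicate 3 and -0.32 in replicate 4), and 37 had a negative value. In 27 of the 40, both 6h libraries were below both 2h libraries, against 23.9% of all genes tested. RAD54L, a motor of homologous recombination, went from 53.8 and 60.6 CPM to 24.7 and 27.7 CPM (-1.12 ± 0.15, adjusted p = 0.029). BRCA2, a tumour suppressor of homologous recombination, went from 57.2 and 55.3 CPM to 25.3 and 31.7 CPM (-0.98 ± 0.18, adjusted p = 0.0412). Short of the threshold were RAD52, an annealing protein (-1.35 ± 0.27, adjusted p = 0.0531), and CHEK1, a checkpoint kinase (-0.56 ± 0.12, adjusted p = 0.0566). Outside the list, UBE2T, the ubiquitin-conjugating enzyme of the Fanconi pathway (34.7 and 37.8 CPM to 13.98 and 14.6 CPM, -1.35 ± 0.22), and PIF1, a DNA helicase (13.8 and 13.7 CPM to 5.94 and 5.11 CPM, -1.32 ± 0.25), were among the 15 largest falls. MMS22L (-0.98), RAD17 (-0.88), SFR1 (-0.88) and CDC7 (-1.10), with roles in replication and repair, were also called lower and were picked from the calls after their values were seen.

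The listed mitosis and kinetochore genes lay lower without a call. Outside the list, the kinetochore gene DSN1 and the mitotic kinesin gene KIF20B were called lower, both picked from the calls after their values were seen. None of 42 passed the threshold in the model without a replicate block, the median was -0.27 (-0.31 in replicate 3 and -0.26 in replicate 4), 37 had a negative value, and both 6h libraries were below both 2h libraries in 23, against 23.9% of all genes tested. ECT2, an exchange factor needed for cytokinesis, stood at 212 and 213 CPM and then at 141 and 137 CPM (-0.61 ± 0.12, adjusted p = 0.0514). CENPE, a kinetochore motor, stood at 77.5 and 73.2 CPM and then at 41.2 and 41.6 CPM (-0.86 ± 0.18, adjusted p = 0.0592), while DLGAP5 (-0.48 ± 0.13) and BUB1B (-0.52 ± 0.15) lay nearer to 0. Among 41 DNA replication and G1/S genes the median was 0.03 and ran from -0.12 to 0.18 when 1 of the 4 libraries was left out. Of these genes 1 fell: GINS1, a subunit of the replicative helicase (46.7 and 49.5 CPM to 23.2 and 27.4 CPM, -0.93 ± 0.18, adjusted p = 0.0484). LMNB1, the B-type lamin of the nuclear envelope, was among the most abundant falls (201 and 226 CPM to 115 and 126 CPM, -0.82 ± 0.15). In these bulk libraries, fewer cells in a phase and less RNA per cell cannot be told apart.

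**Figure D3:**
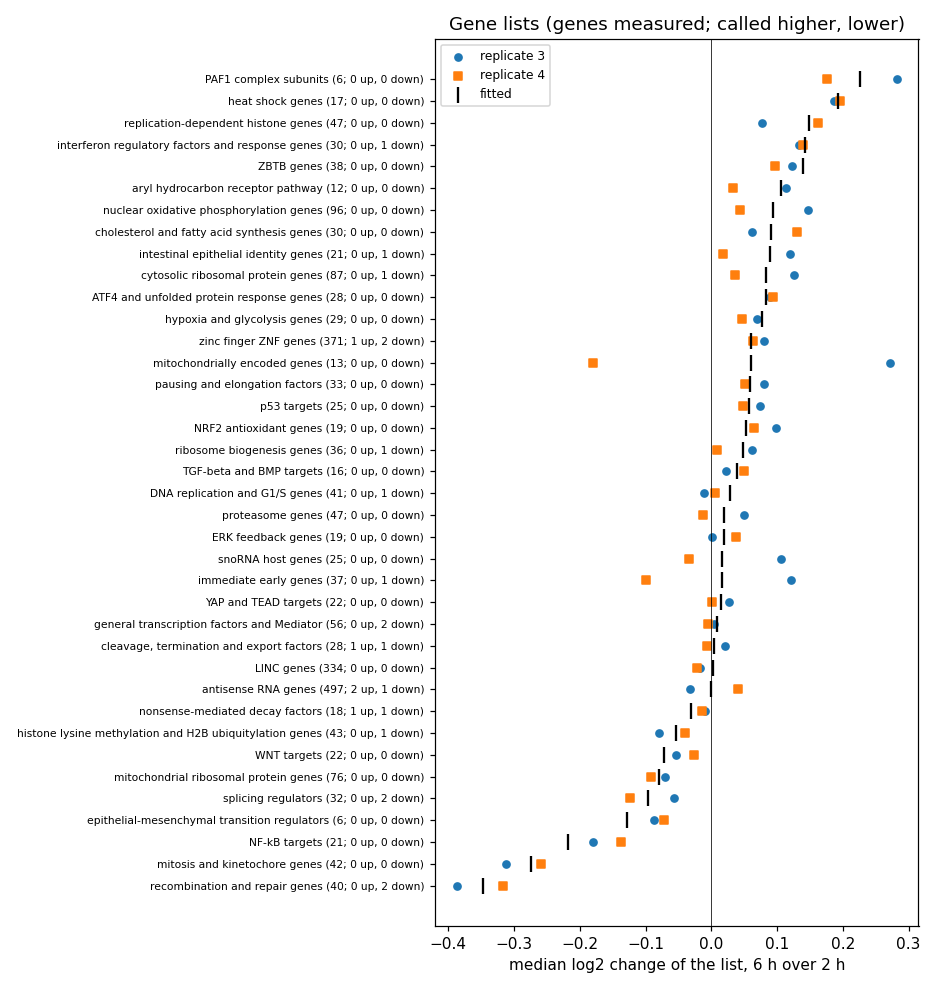
Median log2 change from 2 to 6 h (horizontal axis) of each gene list with at least 6 measured genes, as fitted (black bars) and from replicate 3 (blue circles) and replicate 4 (orange squares) alone, with the number of genes measured and called beside each name. Recombination and repair genes (-0.35) and mitosis and kinetochore genes (-0.27) lie lowest, and mitochondrially encoded genes are at 0.27 in replicate 3 and -0.18 in replicate 4.

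Most other lists had at most 1 call in the model without a replicate block. Of 36 ribosome biogenesis genes, UTP15, a subunit of the small-subunit processome, fell (45.3 and 49.0 CPM to 19.9 and 28.8 CPM, -0.96 ± 0.18). Of 87 genes with cytosolic ribosomal protein names, the 1 called was RPL7L1, a paralogue involved in ribosome assembly and not a core ribosomal protein (255 and 259.7 CPM to 164 and 166 CPM, -0.64 ± 0.12), and the median was 0.08. Of 21 intestinal epithelial identity genes, GRHL2, an epithelial transcription factor, fell (45.0 and 51.2 CPM to 16.9 and 22.7 CPM, -1.28 ± 0.22, adjusted p = 0.0369), around a median of 0.09. TIMM9, a chaperone of mitochondrial import (14.4 and 14.9 CPM to 6.01 and 5.95 CPM, -1.29 ± 0.16), GTPBP2, a GTPase that rescues stalled ribosomes (59.8 and 61.1 CPM to 19.9 and 24.6 CPM, -1.44 ± 0.18), LRRC20 (-1.62 ± 0.25) and CCDC15 (-1.35 ± 0.19) completed the largest falls. In the model without a replicate block, no gene was called among p53 targets (25), heat shock genes (17) or ATF4 and unfolded protein response genes (28). The same held for replication-dependent histone genes (47), nuclear oxidative phosphorylation genes (96) and mitochondrial ribosomal protein genes (76). It also held for snoRNA host genes (25), NF-kB targets (21) and WNT targets (22). With the block, each of these lists except the histone genes held calls.

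From 0 to 2 h, 31 genes were called (0.149%), 14 higher (0.0673%) and 17 lower (0.0818%), and 28 of them, 13 higher and 15 lower, had a mean log2 CPM of at least 1. From 2 to 6 h, 3 of these 28 were called, NXF1 and PHLDA2 higher and KLF10 lower, and 25 were not; over all genes tested 0.875% were called. Because both intervals use the 2h libraries, the levels at the 3 times are given instead of a relation between the changes. PHLDA2, a small PH-domain protein, stood at 65.4 and 74.5 CPM at 0 h, 147 and 134 at 2 h and 226 and 216 at 6 h (0.65 ± 0.12 from 2 to 6 h, adjusted p = 0.0456). KLF10, an immediate early transcription factor of TGF-beta signalling, stood at 42.8 and 43.0 CPM, then 80.4 and 78.9, then 46.1 and 45.6 CPM (-0.80 ± 0.14, adjusted p = 0.0386), so its 6h libraries were within 4 CPM of its 0h libraries. It was the only one called of 37 immediate early genes in the model without a replicate block, and their median was 0.02. With the block, 11 of the 37 were called higher and 9 lower.

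The late values of the other early responders did not pass the threshold. CYP1A1, the classical target of the aryl hydrocarbon receptor, stood at 3.42 and 5.67 CPM, then 35.0 and 50.1, then 68.2 and 64.7 CPM (late value 0.64 ± 0.26, adjusted p = 0.299). TIPARP, another target of that receptor, stood at 31.4 and 41.7 CPM, then 115 and 132, then 102 and 86.7 CPM. FOS went from 4.70 and 5.28 CPM to 18.1 and 15.2 and then stood at 13.4 and 9.20 CPM (late value -0.56 ± 0.21, adjusted p = 0.245). All 3 remained above both 0h libraries at 6 h. PPP1R10, a phosphatase subunit that acts at termination, stood at 100.2 and 92.1 CPM, then 19.5 and 23.2, then 21.9 and 31.9 CPM (late value 0.33 ± 0.20, adjusted p = 0.532). PCF11, a termination factor, stood at 87.1 and 74.0, then 37.1 and 40.3, then 45.0 and 49.1 CPM. DDIT3, a transcription factor of the stress response, stood at 18.2 and 12.5, then 3.59 and 4.99, then 2.97 and 4.07 CPM. These 3 stayed below both 0h libraries at 6 h, with no call between 2 and 6 h. Against 0 h, 2267 genes were called at 6 h (10.9%); that comparison shares its 6h libraries with the late change.

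The called genes differed in structure by direction. Protein-coding genes made up 55 of the 60 higher and 117 of the 122 lower calls. Among them the higher genes had a median of 5 exons and a gene length of 20827 bases, the lower genes 11 exons and 40415 bases, and all 13663 coding genes tested 9 exons and 31686 bases. Of 1261 coding genes with 2 or 3 exons, 1.19% were called higher and 0.397% lower, while of 4095 with 11 to 20 exons 0.195% were called higher and 1.00% lower. The shares did not follow exon number throughout: of 1923 genes with over 20 exons 0.52% were called higher and 1.09% lower, and of 6032 with 4 to 10 exons 0.298% and 0.763%. Genes of 1 exon, such as EXOC8, RNF113A, MARS2 and MAGEF1, were called as often in either direction (1.17% of 343 each, 4 genes each). Of 2575 coding genes of 100 kb or more, 2 (0.0777%) were called higher and 22 (0.854%) lower. Short genes did not show the opposite, with 0.367% higher and 0.587% lower under 10 kb, 0.693% each way at 10 to 30 kb, and 0.358% and 1.16% at 30 to 100 kb. The median of those long genes was -0.06 and that of genes under 10 kb 0.02, so the shift over whole classes was small beside the changes of the called genes. The exon classes were chosen after the values were seen, abundance differs between the classes (median 11.2 CPM for 2 or 3 exons and 32.0 CPM for 11 to 20 exons), and its part in these shares was not tested.

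**Figure D4:**
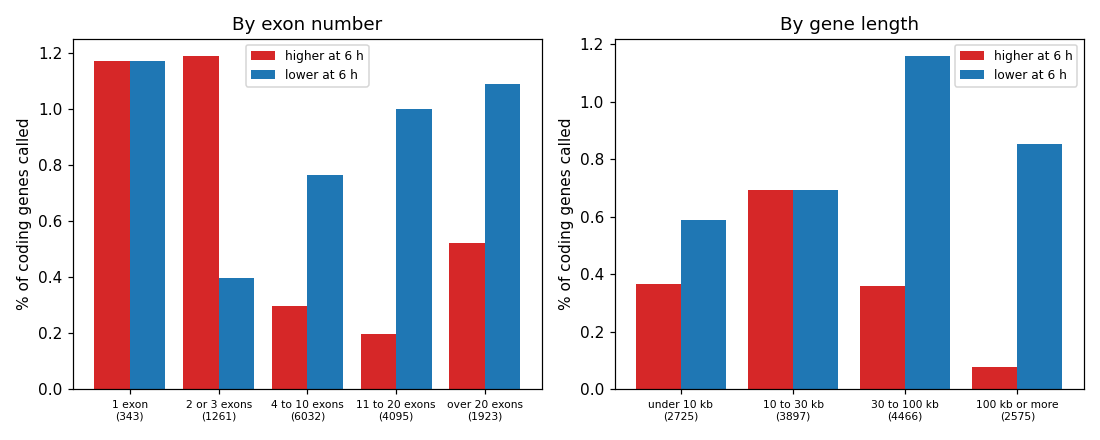
Percent of protein-coding genes called higher (red) or lower (blue) from 2 to 6 h (vertical axis, from 0) by number of exons (left) and gene length (right), with the number of genes in each class in brackets. Higher calls are most frequent among genes with 1 to 3 exons (1.17% and 1.19%) and rarest among genes of 100 kb or more (0.0777%).

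The same interval in SPT6-AID cells, which lack a different elongation factor, shares no library with this comparison. Both were tested in the same fit, with a shared estimate of each gene's spread, so the calls of the lines are not independent. In SPT6-AID cells 3273 genes were called (15.7%), 1107 higher (5.32%) and 2166 lower (10.4%). Of the PAF1-AID calls, 40 higher and 104 lower were also called in that direction in SPT6-AID cells, which is 79.1% of the PAF1-AID list and 4.40% of the SPT6-AID list. Only KLF10 was called in opposite directions. Across all genes tested, which are not independent replicates, the late changes of the lines had a Pearson r of 0.53. NXF1 changed by 1.17, IRF2 by -1.57, MAGEF1 by -1.56 and SMG9 by -1.51 in SPT6-AID cells, against 1.28, -1.99, -1.53 and -1.62 in PAF1-AID cells. The median of recombination and repair genes was -0.63 in SPT6-AID cells (20 of 40 called lower) and -0.35 in PAF1-AID cells. That of mitosis and kinetochore genes was -0.58 (19 of 42 called lower) and -0.27, so neither fall was particular to PAF1-AID cells. The cell lines were engineered separately, and degron line and depleted protein cannot be told apart.

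The difference between the late changes was itself tested, and 88 genes passed (0.423%), 68 with a higher value in PAF1-AID cells and 20 with a lower one. Of the 182 genes called in PAF1-AID cells, 5 were among them: KLF10, LUZP1, KBTBD6, PDE12 and AL645608.7, the last 3 named after their values were seen. LUZP1, KBTBD6 and PDE12, the last a nuclease that trims poly(A) in mitochondria, rose in PAF1-AID cells by 0.78, 0.83 and 0.82 and had values of -0.41, -0.39 and -0.31 in SPT6-AID cells. Their differences were 1.18 ± 0.20 (adjusted p = 0.0383), 1.22 ± 0.19 and 1.13 ± 0.17 (adjusted p = 0.0358 for both). For the non-coding AL645608.7 the values were -1.12 and 0.48. LEO1 of the PAF1 complex also passed this test (1.29 ± 0.22, adjusted p = 0.0417), with a value of 0.21 in PAF1-AID and -1.09 in SPT6-AID cells. The count of 88 was 0 without any one of the 2h and 6h PAF1-AID libraries or SPT6-AID 2h replicate 2, 5 without SPT6-AID 2h replicate 1 or 6h replicate 2, 8 without either PAF1-AID 0h library, 17 without either SPT6-AID 0h library and 554 without SPT6-AID 6h replicate 1.

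**Figure D5:**
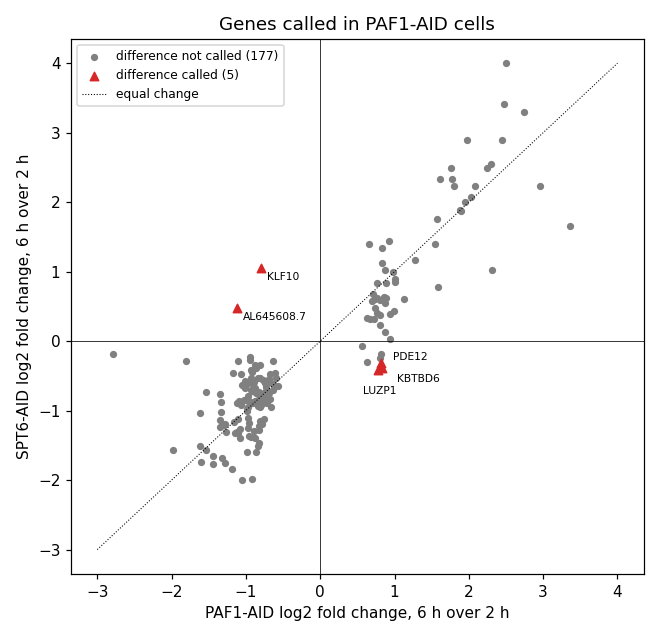
Log2 fold change from 2 to 6 h in SPT6-AID cells (vertical axis) against that in PAF1-AID cells (horizontal axis) for the 182 genes called in PAF1-AID cells, with the dotted line marking equal change. Red triangles mark the 5 genes whose difference between the lines passed the test, and KLF10 is called in opposite directions.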

How the data were processed

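Poly(A)-selected RNA of 12 libraries (6 groups of 2) was sequenced. Reads were handled with featureCounts 2.0.0, STAR 2.7.5 and cutadapt 1.14 on builds GRCh38 and BDGP6, per the submitters' processing notes, and per the file headers 1 table of the series, deposited by the authors, holds raw read counts per gene and library. The counting strand and the annotation release are not given in the sources used here. The 60666 human genes were analysed, and the 17807 fly genes served only as an alternative scaling. Gene positions, types and exon numbers came from GENCODE 29, matched by gene ID for 98.7% of genes tested, and promoters from RefSeq.

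Genes passing filterByExpr were scaled by TMM and fitted with edgeR 4.0.16 (R 4.3.3) as 6 group means over 12 libraries, with 6 residual degrees of freedom, and tested by quasi-likelihood with Benjamini-Hochberg adjustment at 0.05. Each standard error was obtained by dividing a log2 fold change by its root F, and CPM values are scaled by TMM. DESeq2 1.42.0, limma-voom (limma 3.58.1), other scalings, filters and designs and leaving out each library were alternatives. No libraries of the groups compared were copies (chi-square per degree of freedom 34.1 between the 2h and 48.3 between the 6h libraries).

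Genes named were the target gene, the 15 largest called changes each way whose mean log2 CPM reached 1 and whose libraries did not overlap, the 5 most abundant calls each way, the 4 members of each list that had the lowest p, the genes called from 0 to 2 h, and the 6 largest differences each way between the lines; not all are printed. Others are said to have been chosen after their values were seen. The members and the lists were chosen with earlier results of these data known.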

Additional observations from a re-analysis of the deposited data

Results flagged for a closer look

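The late change differed between PAF1-AID and SPT6-AID cells, by the test of the difference itself (edgeR, adjusted p under 0.05), in these 12 genes, the 6 largest each way. On the log2 scale, PAF1-AID minus SPT6-AID, the lowest differences were -2.89 for EGR1, -2.54 for SPRY4, -2.09 for JUN, -1.85 for KLF10, -1.83 for C11orf95 and -1.79 for JUNB. EGR1, JUN, JUNB and KLF10 are immediate early transcription factors and SPRY4 is a feedback inhibitor of ERK signalling. EGR1 stood at 71.3 and 63.1 CPM at 2 h and 29.5 and 28.5 CPM at 6 h in PAF1-AID cells, and at 102 and 80.8 and then 395 and 187 CPM in SPT6-AID cells. JUN stood at 85.4 and 92.3 and then 87.5 and 75.6 CPM in PAF1-AID cells, and at 30.6 and 32.4 and then 113 and 133 CPM in SPT6-AID cells. Of these 6, KLF10 alone was called between 2 and 6 h in PAF1-AID cells.

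The highest differences were 2.03 for URB2, 2.01 for AL512310.7, 1.94 for GOLPH3, 1.93 for KIAA1586, 1.64 for PEX14 and 1.62 for MRTFB. URB2, a ribosome biogenesis protein, stood at 42.5 and 47.4 and then 52.3 and 57.2 CPM in PAF1-AID cells, and at 37.8 and 48.6 and then 15.5 and 10.2 CPM in SPT6-AID cells. GOLPH3, a Golgi phosphoprotein, stood at 74.8 and 79.5 and then 59.7 and 77.1 CPM, against 69.5 and 67.7 and then 19.7 and 11.98 CPM. None of these 6 was called between 2 and 6 h in PAF1-AID cells.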

How the results depend on the processing

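All 182 called genes kept their direction in every alternative that tested them (169 with a mean of at least 1 CPM), but their number did not hold. It was 79 with total counts (26 higher, 53 lower), 0 with fly counts as library sizes (2502 at an unadjusted p under 0.05), 663 without a filter, 881 with DESeq2's Wald test, 42 in the 6 PAF1-AID libraries (9 higher, 33 lower), 0 in the 4 compared libraries (3639 unadjusted) and 0 to 278 without 1 library; the cause was not tested. DESeq2's size factors gave 154, limma-voom 212 and a mean of at least 1 CPM 217. The 88 differences between the lines became 10 with total counts (3 higher, 7 lower), 0 with fly counts (1953 unadjusted), 634 without a filter, 692 with DESeq2, 0 in the 8 compared libraries (2234 unadjusted) and 0 to 554 without 1 library. Fly scaling moved the median of all genes from 0.01 to -0.15, that of recombination and repair genes to -0.50 and that of mitosis genes to -0.43. It turned the medians of ZNF genes (-0.10), cytosolic ribosomal protein genes (-0.08) and mitochondrially encoded genes (-0.11) below 0. Without 1 of the 4 libraries, the median of recombination and repair genes ran from -0.49 to -0.21.

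With the replicate number as a replicate block within each line, 4172 of 20791 genes were called from 2 to 6 h (1743 higher, 2429 lower, all 182 among them) and 3046 for the difference. With the block, 1 of 42 mitosis and kinetochore genes was called higher and 23 lower, and 24 of 40 recombination and repair genes lower. Most lists without a call in the main fit then held calls. Higher and lower, these were 5 and 5 of 25 p53 targets, 6 and 1 of 17 heat shock genes and 4 and 4 of 22 WNT targets. For mitochondrial ribosomal protein genes they were 3 and 16 of 76, and for pausing and elongation factors 5 and 4 of 33. Of 6 PAF1 complex subunits, 2 were called higher. Lists with few calls in the main fit also held more. Higher and lower, these were 55 and 44 of 371 ZNF genes, 45 and 29 of 497 antisense RNA genes, and 8 and 7 of 41 DNA replication and G1/S genes. For ribosome biogenesis genes they were 2 and 8 of 36, and for intestinal epithelial identity genes 2 and 3 of 21. The differences between replicates correlated across genes for every pair of times computed (r = 0.49 to 0.53 in PAF1-AID cells, and 0.60 between 2 and 6 h in SPT6-AID cells), but the labels do not say that a number marks a shared culture or day, and each group had 2 libraries. Where leaving out PAF1-AID 2h or 6h replicate 3 gave no call, 1909 and 1729 genes had an unadjusted p under 0.05.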
